A study of Dugesia japonica with 19 samples.

Results

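The late days of regeneration were set against the early days in the freshwater planarian Dugesia japonica, site by site, for the RNA modification N6-methyladenosine (m6A). The comparison held 12 of the 18 tissue libraries of the study. The 6 late libraries were head, trunk and tail at days 7 and 10, and the 6 early libraries were head, trunk and tail at days 1 and 3. They were chosen by their labelled day, and the libraries of days 0 and 5 stood outside the comparison. Each library came from the mixed pieces of 10 to 20 animals, so it holds 1 value for a pool and not for an animal. All 12 libraries were poly(A)-selected and treated with MazF, and all were read against 1 control library of in vitro transcribed (IVT) RNA. The strain and any further treatment are not given in the sources used here, nor is it said whether a head library was the regrowing head fragment or the head region of a regrowing animal. The transcripts are assembled contigs without gene names, so the tissue labels could not be set against marker genes.

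In planarians, lost tissue is rebuilt by dividing stem cells called neoblasts, which first form a blastema at the wound and later differentiate while the old tissue is remodelled. m6A is placed on adenosines of messenger RNA by a methyltransferase complex, and reader proteins that bind it influence splicing, translation and decay of the transcript. MazF is a bacterial endoribonuclease that cuts RNA at the motif ACA when its first adenosine is unmodified and leaves the methylated motif whole. The uncut share of a site is therefore the number of reads that span the motif uncut over all reads at the site. The IVT control carries no modification and shows how completely MazF cut each motif, and subtracting its uncut share from that of a library gives the deposited m6A level.

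The control share of a site was the same in every table. A late minus early difference of the m6A level was thus the same number as the difference of the uncut share, and only the latter is given below. A site was listed in a library only with a level of at least 0.1, so a site whose uncut share came close to that of the control had no value, and low values are missing from the comparison rather than counted as 0.

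The 12 libraries listed 5354 sites, of 5847 in all 18. Of these, 532 sites on 347 contigs were listed in at least 3 late and at least 3 early libraries, and 42 in all 12. With at least 10 reads required in a library, 112 sites on 61 contigs remained comparable, of which 88 on 51 contigs had a cut read in some library and could be tested. The other 24 sites, on 20 contigs, showed no cut read among 20563 reads. They were therefore uncut in each library that covered them with at least 10 reads, at the highest level their control share allowed. Such values numbered from 6 to 12 per site, and the remaining libraries are not covered by this. Most values in the lists were thinly covered. Of the 15384 values in the 12 libraries, 58.4% rested on fewer than 10 reads (63.9% late, 52.1% early), and 82.3% showed no cut read.

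Depth differed between the periods, and in opposite ways by tissue. The full depth of a library was unknown, because the files count reads at listed sites alone. Reads at listed sites numbered 328868 and 239480 in early head (days 1 and 3), against 232277 and 12100 in late head (days 7 and 10). In trunk they were 180070 and 320149 early against 649432 and 756468 late, and in tail 12642 and 15021 early against 657796 and 50048 late. Head at day 10 and tail at days 1 and 3 thus had the fewest reads at listed sites. In trunk these totals lean on a single contig, TRINITY_DN678_c0_g2_i4, which held 87.6% to 90.2% of the reads. The median reads per listed site were 2 in those libraries, and also in trunk at days 1 and 3 and tail at day 10. They were 3 in trunk at days 7 and 10, 4 in tail at day 7, and 11 to 16 in the other head libraries. In each tissue 1 library was made per day, so no test uses repeat libraries of a day. The spread in the site tests holds the differences between the paired days of a period, with any change between those days. Where late is set against early over all tissues, it also holds any disagreement between tissues in that difference.

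No change in m6A between late and early days passed the test at any single site. Of the 88 tested sites, 0 were higher late (0.0% of those tested) and 0 were lower late (0.0%) in limma with tissue as a block, at an adjusted p under 0.05. At an unadjusted p under 0.05, 1 site was higher (1.14%) and 0 were lower, and the lowest adjusted p was 0.789. A quasi-binomial model of the uncut and cut reads, which weighs the deeper libraries of a site more, also called 0 and 0. It had 4 sites higher (4.55%) and 2 lower (2.27%) at an unadjusted p under 0.05. Without the minimum of reads, limma called 0 and 0 of 275 sites, with 4 higher (1.45%) and 2 lower (0.727%) at an unadjusted p under 0.05. Without head at day 10 limma called 0 and 0 of the 88 sites, and without both that library and the minimum it called 1 of 266, lower late: position 347 of TRINITY_DN10974_c0_g1_i1, on 2 to 9 early reads. At none of the 88 sites did all late values lie above all early values, or all below (0.0% each).

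The differences at most sites were small. The fitted late minus early difference in uncut share had a median of 0.00602, and 56 sites were positive, 31 negative and 1 at 0. Single libraries moved this balance: it was 36 positive and 33 negative of 79 sites without head at day 7, and 42 and 36 of 79 without trunk at day 10 (median 0.000400). The median was 0.00237 without head at day 1, 0.00393 without trunk at day 1 and 0.00389 without trunk at day 3. With at least 5 values a side, 16 sites were positive and 15 negative. The median absolute difference was 0.0113, beside a median standard error of 0.0148. At 48 of the 88 sites the mean uncut share was at least 0.95 in both periods, so there was little room for a higher value. It was under 0.8 in either period at 18 sites.

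The intervals say which changes among listed values these libraries could have shown. A site kept a value only at a level of at least 0.1, so a larger loss removes the value and does not widen the interval. The control uncut share at tested sites had a median of 0.557 and reached 0.879. Where it was high, the filter itself left little room for a lower value and kept the interval narrow. The 95% interval of the difference lay wholly within 0.05 of 0 at 45 sites (51.1%), within 0.1 at 62 (70.5%) and within 0.2 at 78 (88.6%). The fitted differences ranged from -0.0535 to 0.244, and 12 were larger than 0.05 in size. The widest interval, at a site with 3 late and 3 early values, ran from -0.122 to 0.610, so at such sites changes of this size were not detectable.

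**Figure D1:**
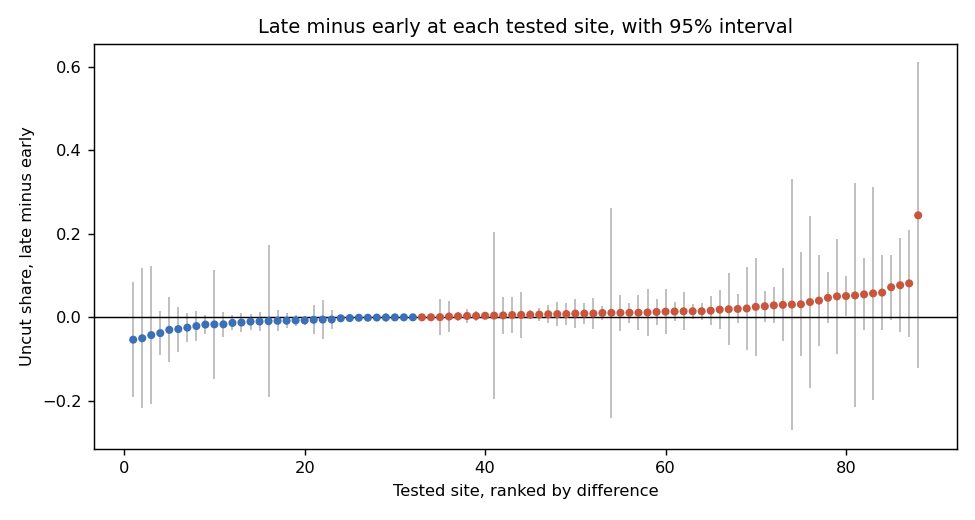
Late minus early difference in uncut share (y axis) at each of the 88 tested sites, ranked by the difference (x axis), with bars for the 95% interval of the limma fit with tissue as a block. Red points are positive and blue points are 0 or negative; the differences range from -0.0535 to 0.244, 45 of the intervals lie within 0.05 of 0, and no site passed the adjusted test.

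Taken by tissue, more head sites had higher than lower late values, while the counts in trunk and tail were even or went the other way. In head, 42 of 71 sites with values in both periods were higher late, 23 lower and 6 equal, with a median difference of 0.0153. Without head at day 10, a setting added after seeing the data, 44 were higher and 21 lower, with a median of 0.00895. In trunk 31 of 86 were higher and 31 lower, with a median of 0.0 and a mean of 0.0186, and in tail 13 of 52 were higher and 20 lower, with a median of 0.0 and a mean of -0.000604. Of 34 sites with both periods in all 3 tissues, 4 were higher late in every tissue and 0 were lower in every tissue. A test of whether the late minus early difference itself depended on tissue called 0 of these 34 sites (0.0%; limma interaction, 4 at an unadjusted p under 0.05).

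The site with the largest late minus early difference among those of 1 sign in at least 2 tissues was position 1951 of TRINITY_DN1290_c0_g1_i7 (minus strand, contig length 3433 bases). Its control uncut share was 0.116 (19 of 164 reads), so MazF cut most of the unmodified control RNA there. In trunk its uncut share was 0.669 at day 1 and 0.774 at day 3, and 0.857 at day 7 and 0.944 at day 10. These trunk values rested on 827, 1493, 3917 and 9180 reads, and the widest counting interval (95% Wilson) was 0.636 to 0.7, that of day 1. Both late trunk values were thus above both early ones.

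The other tissues did not share that size of difference. In head the uncut share of position 1951 was 0.280 and 0.273 early and 0.270 and 0.333 late, the last on 15 reads (interval 0.152 to 0.583). In tail it was 0.928 and 0.988 early and 0.973 and 0.967 late. Head was low and tail high in both periods, and their late and early values overlapped. Late minus early was 0.179 for trunk, 0.0251 for head and 0.0120 for tail. Over all 12 libraries the mean m6A level was 0.536 early and 0.608 late, and the fitted difference was 0.0719 (SE 0.0342, 95% interval -0.0059 to 0.1498, limma adjusted p = 0.789). The libraries outside the comparison gave 0.552 at day 0 and 0.909 at day 5 in trunk, and 0.301 and 0.465 in head.

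Position 153 of TRINITY_DN24716_c0_g1_i1, plus strand, contig of 465 bases, had the next largest difference among sites that leaned 1 way. In trunk its uncut share was 0.815 and 0.825 early and 0.905 and 0.925 late. In head it was 0.386 and 0.505 early, and 0.503 and 0.478 late. In tail it was 0.909 and 1 early, and 0.9904 and 0.921 late. Only trunk kept its late values apart from the early ones, and the fitted difference was 0.0467 (SE 0.0267, 95% interval -0.0141 to 0.108, limma adjusted p = 0.789). Coverage ran from 22 to 1030 reads.

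Position 339 of TRINITY_DN155747_c0_g1_i1, minus strand, contig of 1024 bases, was among the deepest sites, with up to 41120 reads in a library. In head its uncut share was 0.345 at day 1 and 0.584 at day 3, so the early days differed from each other by more than the late ones, which stood at 0.498 and 0.508. In trunk the pattern was alike, with 0.313 and 0.513 early and 0.418 and 0.552 late. In tail the 4 values lay between 0.986 and 1. The fitted difference of 0.0400 was smaller than its standard error of 0.0479 (limma adjusted p = 0.850). Depth was not the limit there, since the spread between days of 1 period exceeded the counting error.

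The 3 remaining sites with the largest positive differences of 1 sign came with smaller values. At position 613 of TRINITY_DN6740_c0_g1_i1 the fitted difference was 0.0250 (SE 0.0448), from 0.184 against 0.221 in head and from 0.295 and 0.306 against 0.237 and 0.402 in trunk. The fit dropped its early tail values, which had under 10 reads. At position 4250 of TRINITY_DN678_c0_g2_i4 the head values were 0.909 and 0.954 early and 0.986 at day 7, with no value at day 10. At position 2022 of TRINITY_DN1290_c0_g1_i7 the early values ran from 0.860 to 0.915 and the late ones from 0.864 to 0.954. None of these passed the test, and the periods overlapped at each over all tissues.

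Of the sites with both periods in at least 2 tissues, 4 were lower late in each such tissue, and the differences were no larger. The first was position 180 of TRINITY_DN19986_c0_g1_i8, plus strand, contig of 1196 bases, with 0.872 and 0.846 early and 0.743 and 0.856 late in trunk. In tail it had 0.877 and 0.932 early and 0.881 and 0.928 late. The fitted difference was -0.0299 (SE 0.0313, limma adjusted p = 0.850). Head was listed at day 10 alone, at 0.519 on 293 reads, and added nothing to the late minus early difference.

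Position 1465 of TRINITY_DN1290_c0_g1_i7 had 0.998 and 0.987 early and 0.922 and 0.972 late in trunk, on 938 to 3447 reads. Both late trunk values were below both early ones. In tail no read was cut at days 1, 3 and 10, and the share was 0.992 at day 7. The fitted difference was -0.0247 (SE 0.0140, limma adjusted p = 0.789). Head again appeared at day 10 alone, with 5 of 37 reads uncut (0.135). Its control share was 0.0326, the lowest among the sites named here.

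The other members of that group were position 252 of TRINITY_DN4011_c1_g1_i1, with a fitted difference of -0.0133 (SE 0.00617), and position 554 of TRINITY_DN155747_c0_g1_i1, with -0.00746 (SE 0.00547). The early and late values of both sites overlapped. The adjusted p was 0.789 for each in limma.

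**Figure D2:**
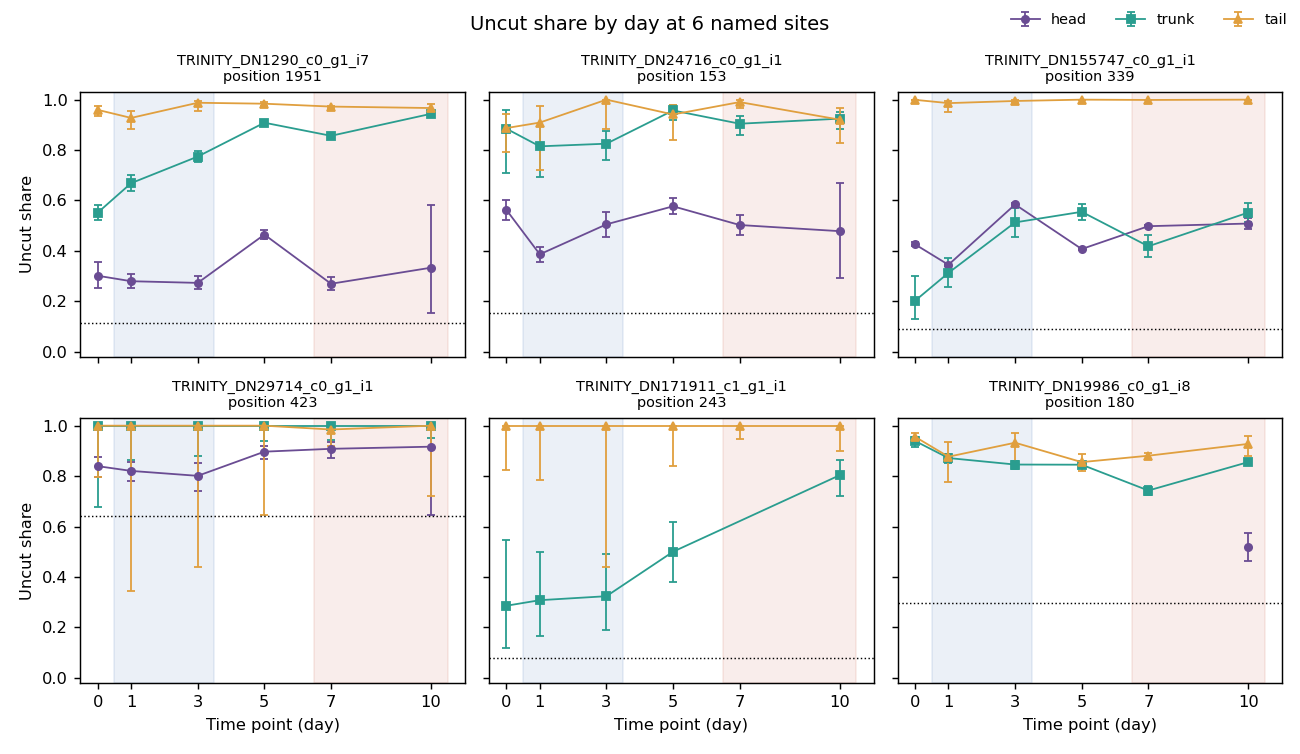
Uncut share (y axis) by labelled day (x axis) in head, trunk and tail at 6 sites, with 95% Wilson intervals for counting error; the blue band marks the early days, the red band the late days, and the dotted line is the control uncut share. At position 1951 of TRINITY_DN1290_c0_g1_i7 trunk runs from 0.669 at day 1 to 0.944 at day 10, while head and tail overlap between periods; days 0 and 5 are outside the comparison.

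The next 3 sites were singled out after their values were seen, for the lowest limma p, the largest fitted difference and the lowest quasi-binomial p. At the former pair a single tissue carried the difference. Position 423 of TRINITY_DN29714_c0_g1_i1, plus strand, contig of 1082 bases, was the 1 site with an unadjusted p under 0.05. Its uncut share in head was 0.821 and 0.801 early and 0.908 and 0.917 late, the last on 12 reads (interval 0.646 to 0.985). Trunk showed no cut read in either period, on 24 to 78 reads. The fitted difference was 0.0508 (SE 0.0204, limma adjusted p = 0.789, unadjusted 0.0429). The fit left out the early tail values, which had 2 and 3 reads. Outside the comparison, head stood at 0.839 at day 0 and 0.897 at day 5.

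Position 243 of TRINITY_DN171911_c1_g1_i1, plus strand, contig of 568 bases, had the largest fitted difference of all 88 sites. It rested on trunk, where 8 of 26 reads were uncut at day 1 (0.308) and 11 of 34 at day 3 (0.324), against 94 of 117 at day 10 (0.803, interval 0.722 to 0.865). Day 7 had no value in trunk, tail showed no cut read, and head was not listed. With 1 late trunk library the difference of 0.244 (SE 0.127, 95% interval -0.122 to 0.610) did not pass (limma adjusted p = 0.789). Trunk at days 0 and 5, outside the comparison, had 0.286 and 0.5.

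Position 1849 of TRINITY_DN678_c0_g2_i4 had the lowest quasi-binomial p (0.00266 unadjusted) with a difference of 0.000184 in uncut share. Early trunk had 6 cut reads of 11694 at day 1 and 8 of 21501 at day 3, and late trunk 0 of 35847 and 4 of 55914. The uncut share was 0.999 or above in all 12 libraries.

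Other sites lay at or near full protection in both periods. Position 152 of TRINITY_DN870_c17_g1_i2 showed no cut read in any of the 12 libraries, on 16 to 579 reads, with a control share of 0.88. Positions 2967 and 2059 of TRINITY_DN678_c0_g2_i4 lay at or above 0.991 in every library, with differences of -0.000119 (SE 0.00157) and -0.00103 (SE 0.00152). The 95% intervals of both stayed within 0.005 of 0. Among sites covered in all 12 libraries, position 745 of TRINITY_DN11867_c10_g1_i1 had the lowest mean uncut share. Its early values ran from 0.301 to 0.9 with a median of 0.599, and its late values from 0.307 to 0.882 with a median of 0.806. Over all tissues the periods overlapped. In tail both late values (0.757 and 0.873) were above both early ones (0.75 and 0.5), while head and trunk overlapped. The thinnest of these tail values, an early one, rested on 12 reads. The fitted difference was 0.0812 (SE 0.0561, limma adjusted p = 0.789).

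The 2 contigs with the most tested sites held differences of both signs. TRINITY_DN678_c0_g2_i4, a contig of 5705 bases that drew the most reads in 9 of the 12 libraries, had 16 tested sites, 9 higher and 7 lower late, with a median difference of 0.000103 and a range of -0.0535 to 0.0501. TRINITY_DN1290_c0_g1_i7 had 8 tested sites, 4 higher and 4 lower. In head all 6 of its sites with both periods were higher late, with a median of 0.0223, while tail had 3 higher and 5 lower and trunk 4 and 4. In tail, position 1045 (plus strand) had a difference of -0.0964 and position 2022 (minus strand) one of 0.0164. TRINITY_DN11867_c10_g1_i1, of 1601 bases, had 4 tested sites, all with a positive fitted difference (median 0.0293), the smallest 0.000393 (SE 0.0183) at position 594. By tissue, 2 of its sites were higher and 1 lower late in head, 2 and 1 in trunk, and 1 and 0 in tail. TRINITY_DN155747_c0_g1_i1 also had 4 tested sites, with 2 positive and 2 negative. Sites of 1 contig share their reads and their transcript, so they are not independent.

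Within a tissue, some sites had late and early values that did not overlap. They were sought among sites with at least 10 reads in all 4 libraries of the tissue and a cut read in 1 of them. In head, both late values were above both early values at 16 of 66 sites (24.2%) and below at 5 (7.58%). In trunk the counts were 8 (11.8%) and 12 (17.6%) of 68, and in tail 8 (22.9%) and 8 (22.9%) of 35. No test was made of these counts, and the shares are those of all sites compared in the tissue. With so few values a side, some sites fall in such an order without any change.

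Depth differed along with these orders. Of the 16 head sites with higher late values, 11 showed no cut read at day 10, the library with the fewest reads. Of the sites with lower late values, 5 of 12 in trunk and 5 of 8 in tail had no cut read in either early library. In those tissues the early libraries had fewer reads at listed sites. The part of depth in these orders was not tested. At the head sites with lower late values, day 7 was also under both early values, but day 10 often lay further below. Position 558 of TRINITY_DN12574_c0_g1_i1 went the other way, with 0.642 and 0.8 early, 0.567 at day 7 and 0.571 at day 10. Position 1596 of TRINITY_DN678_c0_g2_i4 had 0.965 and 0.963 early, 0.960 at day 7 and 0.591 at day 10. The same position in trunk was higher late, with 0.959 and 0.976 early and 0.993 and 0.996 late.

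In trunk, the libraries left out of the comparison lay in the same direction as the periods. Of 7 trunk sites with higher late values that were also measured at days 0 and 5, 6 were higher at day 5 than at day 0 and 1 was lower. Of 6 trunk sites with lower late values, 0 were higher at day 5 and 6 were lower. Over all 51 trunk sites with these days, 24 were higher and 16 lower at day 5. In tail the counts were 6 and 2 of 8 for sites with higher late values, and 1 and 5 of 8 for sites with lower late values. In head they were 8 and 6 of 15 for the former, and 3 and 2 of 5 for the latter, so head showed no such order. Days 0 and 5 were not used to choose these sites. The 8 and 12 trunk sites lay on 7 and 10 contigs. Of the 6 lower sites, positions 1465 and 1045 share TRINITY_DN1290_c0_g1_i7, and positions 1311 and 3263 share TRINITY_DN678_c0_g2_i4. Position 280 of TRINITY_DN182285_c0_g1_i2 and position 820 of TRINITY_DN16393_c0_g1_i2 stood at 1 on day 0 and could not rise. Each day was 1 trunk library, so the sites are not replicates of a day. Trunk also had more reads at listed sites at day 5, 834034 against 112555 at day 0. Most of both came from TRINITY_DN678_c0_g2_i4, and the part of depth was not tested.

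Some of these trunk sites followed the day step by step. Position 1596 of TRINITY_DN678_c0_g2_i4 had trunk values of 0.951, 0.959, 0.976, 0.986, 0.993 and 0.996 at days 0, 1, 3, 5, 7 and 10, on at least 12285 reads at each compared day. Position 110 of TRINITY_DN19986_c0_g1_i8 had 0.672, 0.752, 0.815, 0.851, 0.861 and 0.873. Its late minus early difference was 0.0832 in trunk but -0.0717 in head. The fitted difference of position 110 was 0.0212 (SE 0.0402, limma adjusted p = 0.850). Position 1951 of TRINITY_DN1290_c0_g1_i7, given above, broke the order at day 7 only. Among the lower sites, position 1465 of TRINITY_DN1290_c0_g1_i7 had 0.994 at day 0 and 0.974 at day 5 in trunk. Position 1045 of that contig had 0.945 at day 0 and 0.874 at day 5 in trunk, and 0.944 and 0.850 in tail. These sites were chosen after their values were seen.

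**Figure D3:**
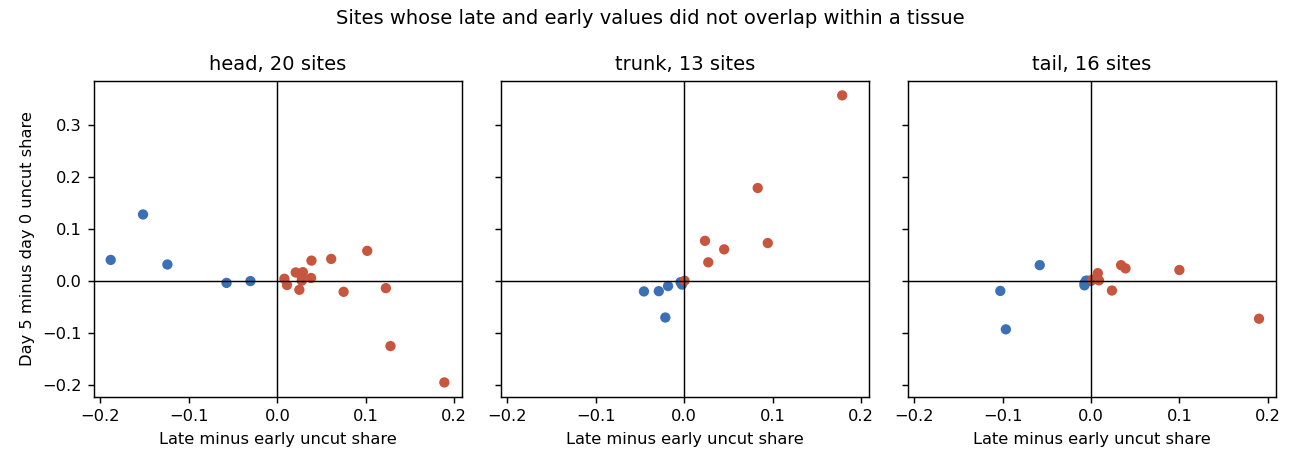
Late minus early difference in uncut share (x axis) against the day 5 minus day 0 difference (y axis), for sites whose late and early values did not overlap within the tissue and that were measured at days 0 and 5; red points are higher late and blue points lower late. In trunk 6 of the 7 red points lie above 0 and all 6 blue points below it, while in head the points lie on both sides.

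Whole libraries were compared in 7 measures, and none had an unadjusted exact p under 0.05 over all listed sites. The number of listed sites was 2749 and 1695 in early head against 1796 and 631 in late head, 712 and 846 against 1086 and 1357 in trunk, and 447 and 726 against 2375 and 964 in tail. On the log2 scale late minus early was 0.34, with -1.02 for head, 0.65 for trunk and 1.41 for tail (exact permutation p = 0.5, adjusted p = 0.843 over the 7 measures). The log2 of reads at listed sites had differences of -2.40 for head, 1.55 for trunk and 3.72 for tail, with a mean of 0.95 (exact permutation p = 0.472). Within each tissue, the period with more reads at listed sites thus also had more listed sites. Between tissues this did not hold. Trunk at day 10 had 756468 reads and 1357 listed sites, and head at day 1 had 328868 reads and 2749 listed sites. The test places the period labels in every way within tissues and is two-sided, with a smallest p of 0.00926. Adjusted over 7 measures, that p comes to 0.0648 for a single measure, so the adjusted values say nothing about stability.

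Over all tissues, the m6A level differed between periods by less than the spread of libraries, which includes the differences between tissues. The median level of listed sites was 0.261 ± 0.0364 early (SD, n = 6 libraries) and 0.260 ± 0.0435 late, a difference of -0.000790 (exact permutation p = 0.880). Sites with a level of at least 0.5 made up 20.5% ± 5.33 early and 20.9% ± 7.84 late (exact permutation p = 0.722). In head this share was 15.6% and 13.7% early and 13.6% and 10.3% late. In tail it was 27.3% and 25.6% early and 28.5% and 29.8% late. Each of these tissues kept its periods apart, in opposite directions, while trunk overlapped. Sites with no cut read made up 83.7% ± 9.66 early and 86.1% ± 7.03 late (exact permutation p = 0.630). The control share of the listed sites, which depends only on which sites are listed, was 0.711 ± 0.0244 early and 0.719 ± 0.0392 late (exact permutation p = 0.481).

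At fixed sites, where the list cannot move the value, the mean uncut share was also close between periods. These were the 92 sites in head, 108 in trunk and 50 in tail with at least 10 reads in all 4 libraries of the tissue. The mean was 0.922 and 0.929 early against 0.932 and 0.920 late in head. In trunk it was 0.929 and 0.931 against 0.925 and 0.945, and in tail 0.973 and 0.969 against 0.976 and 0.971. The late minus early difference averaged 0.00277 (exact permutation p = 0.528, adjusted p = 0.843). Single sites moved about as much between days of 1 period as across periods. The mean absolute difference of a site was 0.0318 within and 0.0345 across periods in head, 0.0289 and 0.0283 in trunk, and 0.0154 and 0.0184 in tail.

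The share of sites with no cut read was the 1 measure whose placement was the most extreme possible when only sites with at least 10 reads in the library were kept. It was then higher late by 5.67 percentage points, with 1.34 for head, 4.73 for trunk and 10.9 for tail (exact permutation p = 0.00926, adjusted p = 0.0648 over the 7 measures). Over all listed sites, trunk (-1.04 points) and tail (-0.947) were instead lower late, and only head (9.23) was higher. The sign of trunk and tail thus depended on the minimum of reads. The adjusted p of 0.0648 is what a lone measure at the smallest p receives over 7 measures, so the design did not allow it to pass however large the difference.

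**Figure D4:**
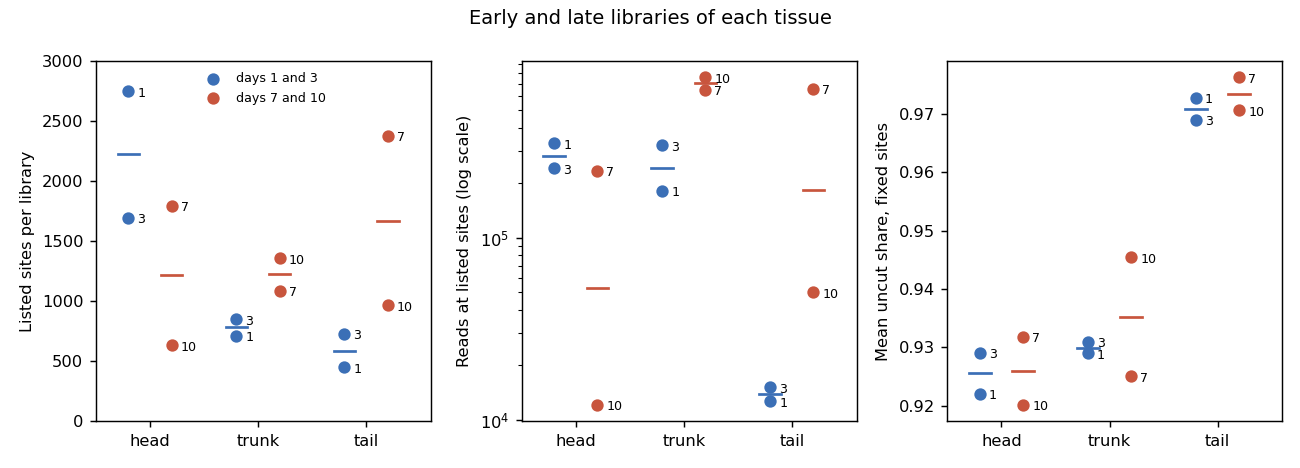
Listed sites, reads at listed sites (log axis) and mean uncut share at fixed sites (y axes) for the early (blue) and late (red) libraries of each tissue (x axis); each point is a library with its day, and bars are means (geometric for reads). Reads run from 12100 to 756468, head losing and trunk and tail gaining late, while the fixed-site means of each tissue overlap between periods.

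The lists of sites were compared within a period and across periods. Lists of the same period and tissue had a Jaccard index of 0.357, that is, the sites common to a pair of lists as a part of their union. Lists of different periods had 0.331. The difference of 0.0259 did not pass (exact permutation p = 0.148, smallest possible 0.037). It was -0.0189 for head, 0.0436 for trunk and 0.0530 for tail. With only sites of at least 10 reads the difference was 0.0959, from 0.394 within and 0.298 across periods (exact permutation p = 0.111), with -0.0509 for head, 0.202 for trunk and 0.137 for tail.

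Of the 5354 sites, 1274 were listed late only and 1326 early only, and most of them came from a single library. Tail at day 7 held 915 of the late sites, 618 of them alone, and head at day 1 held 1061 of the early sites, 888 of them alone. These were the libraries with the most listed sites of their period. In at least 3 late and no early library there were 75 sites, on 71 contigs, and in at least 3 early and no late library 14. Of the 75 late sites 52 were also listed at day 5 and 31 at day 0, and of the 14 early sites 10 at day 5 and 7 at day 0.

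The late sites were mostly thin. Their median coverage at day 7 in tail was 3 reads and at day 10 in trunk 3 reads. Position 436 of TRINITY_DN1586_c8_g1_i2 was in 5 late libraries and no early one, on 1 to 6 reads, all uncut. Position 148 of TRINITY_DN9655_c0_g1_i1 was in 5 late libraries on 1 to 3 reads and also in trunk and tail at day 0. Position 971 of TRINITY_DN13852_c0_g3_i2 was likewise in 5 late libraries, and in head and trunk at day 0.

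A better covered case was position 1694 of TRINITY_DN79_c0_g1_i2, minus strand, contig of 6701 bases. It was listed in trunk at days 5, 7 and 10 with 33, 26 and 25 reads and in tail with 12, 13 and 18 reads, every one uncut. It was not listed at days 0, 1 or 3 in any tissue, or in head at all. Its control had 4 reads, 3 of them uncut, so by the filter read from the values it could enter a list only with 11 uncut reads in the library itself. Absence from the early lists can thus mean too few reads. Fewer transcripts and less methylation cannot be told apart there, nor can fewer cells of a type and less RNA per cell.

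Of the early sites, position 650 of TRINITY_DN12750_c0_g1_i1 was in 4 early libraries on 1 to 10 reads, all uncut, and was still listed in all 3 tissues at day 5. Position 2306 of TRINITY_DN1909_c0_g1_i1 had 33 of 42 reads uncut in head at day 1, and 12 of 13 at day 5. Positions 1036 of TRINITY_DN1332_c0_g1_i5 and 149 of TRINITY_DN35773_c0_g1_i1 were each in 3 early libraries, on at most 19 and 5 reads.

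**Figure D5:**
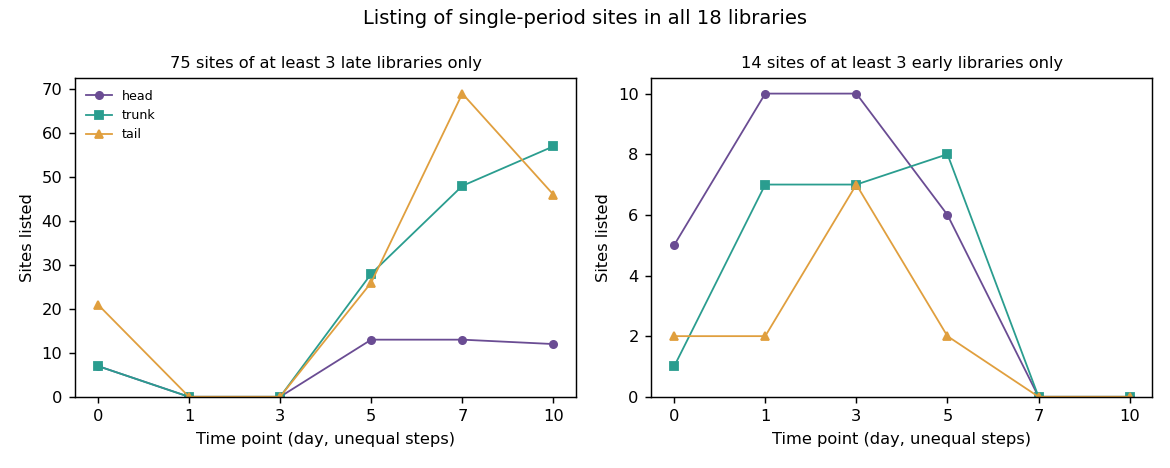
Number of the 75 sites of at least 3 late libraries and no early one (left), and of the 14 sites of at least 3 early libraries and no late one (right), that each library listed (y axis) by labelled day (x axis) and tissue. The zeros in the excluded period follow from the choice; at day 5, outside the choice, 28 of the 75 late sites were listed in trunk and 26 in tail, and at day 0 7 and 21.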

How the data were processed

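The members and lists were chosen with earlier results of these data known. Per the file headers, the deposited tables hold, for each motif position on an assembled contig, counts of uncut and of total reads for the library and for the control, both fractions of uncut reads, the m6A level as a fraction, and the contig length in bases as an other value. The deposited level equalled library share minus control share in all 23432 rows (tolerance 1e-09), and the control counts of a site never differed between tables. The control's columns also carry the letters fto, whose meaning is not settled here. The submitters' processing notes name FastQC, fastp 0.20.0 and HISAT2 2.4.2; the counting program, the contig assembly's version and the list filter are not given in the sources used here. By the values, no listed level was under 0.1, and no row had under 11 uncut reads in both library and control, so 60.4% of the values of the 12 libraries were listed through control reads alone. All values therefore depend on the depth of the single control, whose median coverage at tested sites was 107.5 reads.

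Uncut shares were fitted with limma 3.58.1 (R 4.3.3; lmFit, eBayes, tissue as block) at sites with at least 3 late and 3 early values of at least 10 reads and a cut read in some library. Benjamini-Hochberg adjustment ran over all tested sites, with a threshold of 0.05. The fit was also run on simulated reads with known shifts. These reads held counting error alone, without differences between days of a period, so the run does not give the power or the false calls in these libraries. Measures of libraries used exact two-sided permutation within tissues (Python 3.11.15, scipy 1.17.1). Wilson intervals (95%) cover counting error only, since reads without molecular identifiers are not independent molecules. Nothing in the labels names separate cultures or preparation batches, and p-values reflect only the spread among the pooled libraries. Named sites were the called ones, the up to 6 largest differences each way with 1 sign in at least 2 tissues, the 3 contigs with the most tested sites, 4 sites listed in most libraries of 1 period only for each period, and the 4 highest and 4 lowest shares in all 12 libraries; sites named beyond this rule are marked as chosen after their values were seen. Alternatives were the minimum of reads, the scale, the model, weights, the block and leaving out each library.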

Additional observations from a re-analysis of the deposited data

Results flagged for a closer look

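In 41 groups of 4 to 10 values of named sites and library measures, 7 held a value standing apart from the rest by Dixon's ratio. Chance marks about 1 in 20 groups where values are normally distributed. Many of these values lie near 1 and come from unlike tissues and depths, so that rate cannot be applied here. In 6 of the 7 the value itself was 0.986 or above. At position 4250 of TRINITY_DN678_c0_g2_i4, head at day 7 (0.986) was the lowest late value. At position 1849 of the same contig head at day 7 was lowest late (0.99974, ratio 0.730). At position 2967 head at day 1 was lowest early (0.996) and tail at day 7 lowest late (0.995). At position 2059 head at day 3 was lowest early (0.994). At position 1465 of TRINITY_DN1290_c0_g1_i7, trunk at day 3 was lowest early (0.987).

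The largest gap was at that same position 1465, where head at day 10 stood at 0.135 against 0.922 to 1 in the other late libraries (ratio 0.910). Head was listed there on no other day, so this is the single head value. It comes from the library with the fewest reads at listed sites.

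In 3 comparisons of tissues, over 2 library measures, the periods ran in opposite directions without overlap. Reads at listed sites (log2) differed by -2.40 for head, 1.55 for trunk and 3.72 for tail. Sites with a level of at least 0.5 differed by -2.75 percentage points in head against 2.70 in tail. These differences between tissues were not tested.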

How the results depend on the processing

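The count of 0 called sites held in the alternatives with at least 10 or 50 reads, other scales, weights, models or no block, and without each library in turn (0 to 0). Without head at day 10 and with no minimum of reads, 1 of 266 sites was called, lower late: position 347 of TRINITY_DN10974_c0_g1_i1, at -0.178 (SE 0.00465, limma adjusted p = 0.0328). Its early values were all uncut on 2, 4 and 9 reads, against 18 of 22 and 19 of 23 in late trunk. With no minimum and all libraries, 0 of 275 sites were called (4 higher and 2 lower at an unadjusted p under 0.05; lowest adjusted p 0.0600). The interaction with tissue then called 13 of 99 sites, 10 of them with a head period of 1 library and 8 with a library of 1 read. On the log2 scale of uncut over cut reads, 69 sites were positive and 19 negative (12 and 0 at an unadjusted p under 0.05). On that scale a site with no cut read lies higher the deeper it is. Both added settings, no minimum with that scale or with the quasi-binomial model, were chosen after seeing the data and called 0 sites.

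The sign of several library measures was not stable. With only sites of at least 10 reads the difference was 0.0172 for the median level, -0.145 points for levels of at least 0.5 and -0.00807 for the control share. For sites with no cut read the mean difference stayed positive, but trunk and tail turned from lower to higher late. The fixed-site share was -0.000701 with at least 50 reads. The overlap difference was -0.0177 when shared sites were divided by the shorter list. Leaving out each library gave -0.00354 to 0.00196 for the median level, -0.130 to 0.964 points for levels of at least 0.5, -0.000714 to 0.00768 for the fixed-site share, 0.09 to 0.60 for listed sites (log2), 0.24 to 1.66 for reads (log2), 0.107 to 4.72 points for sites with no cut read and 0.00174 to 0.0126 for the control share. Without a library the lowest unadjusted exact permutation p was 0.0463, for reads without head at day 10, and the adjustment over 7 measures leaves no room for a single measure to pass.

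Of the named sites, 4 changed sign in some settings, none past the threshold. Position 613 of TRINITY_DN6740_c0_g1_i1 was -0.0204 without trunk at day 10 and up to 0.0738 without another library. Position 252 of TRINITY_DN4011_c1_g1_i1 was 0.24 on the log2 scale and 0.82 on it with no minimum. Position 2059 of TRINITY_DN678_c0_g2_i4 was 0.95 on the log2 scale with and without the minimum. Position 2967 of that contig was 0.00106 with at least 50 reads, 0.92 on the log2 scale, 0.943 in the quasi-binomial model, both with and without the minimum, 2.78e-05 with weights, and -0.000814 to 0.000791 when each library was left out. The cause of these changes was not tested. No paired analysis was possible because the labels give no replicate numbers; tissue is the block of the fit.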
